A study of Mus musculus with 2 samples.

Results

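Chemokine ligands, the small secreted proteins that direct the migration of leukocytes and other cells, were followed in mouse embryonic stem cells (ESCs) labelled as overexpressing the cytoplasmic deacetylase HDAC6. The family was taken as 34 named genes, of 20284 genes named on the array: 18 of the CC class, 14 of the CXC class, Cx3cl1 and Xcl1. Membership followed gene names and used no measured value, but the members were chosen with earlier results of these data known. RNA of ESCs labelled HDAC6 overexpression (OE below, a name for the label only) carried Cy5, and RNA of wild-type (WT) ESCs carried Cy3, and both were hybridised together on each of 2 Agilent arrays. Cells of both groups were of strain B6C3F1 and at passage 26, and both were grown with the cytokine LIF on fibroblast feeders arrested with mitomycin C. The vector, its promoter and the number of clones are not given in the sources used here.

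Replicates 1 and 2 are called biological in the labels, but the deposited names give the OE and WT material the same number on both, so separate cultures are not settled and the p-values may measure a technical spread. Both arrays have the same dye orientation, so a dye effect cannot be told apart from the effect of the label. Hdac6 itself had processed signals of 18275 and 17344 in OE RNA, against 16389 and 17806 in WT RNA, a log2 ratio of 0.06 ± 0.14 (SD, n = 2; limma adjusted p = 0.639), and its other probe gave 0.09. It passed the test in none of the settings tried but one, centring on the median after normexp correction (0.52, adjusted p = 0.00100), so each direction below is that of the RNA labelled OE. Well above background were 68.7% and 68.6% of probes in OE RNA, against 68.8% and 68.0% in WT RNA. All 9 pluripotency markers were measured in both channels, of which 3 were higher and 4 lower in OE RNA. Of all genes measured in both channels, 20.5% were higher and 29.3% lower.

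Chemokines are grouped by the spacing of their first cysteines, and each acts through one or more G protein-coupled receptors. CXC ligands with a Glu-Leu-Arg motif signal through CXCR2 and attract neutrophils, interferon-induced CXC ligands signal through CXCR3 and attract activated T cells, and many CC ligands attract monocytes, T cells or eosinophils. Fibroblasts and macrophages make many inflammatory chemokines after NF-kB activation, while others, such as Cxcl12, are made without inflammation.

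Of the 34 genes, 33 had a probe (40 probes in all), and Cxcl11 had none matched here. A probe was counted as measured in a channel where the scanner software marked it well above background in that channel on both arrays. In both channels 24 members were measured. Ccl8, Ccl24 and Cxcl15 were measured in the OE channel and not in the WT channel on both arrays, and Ccl20 in the WT channel and not in the OE channel on both arrays. Ccl11, Ccl22, Cxcl3, Cxcl13 and Xcl1 were measured in neither, with processed signals of 8.08 to 15.3 in all, which is under the lowest signal counted as well above background (39.9 to 43.7).

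Among the 24 members measured in both channels, 15 were higher in OE RNA, 3 were lower and 6 did not pass the test (limma across all genes, Benjamini-Hochberg adjusted p under 0.05). Over all 15421 genes measured in both channels the same test called 20.5% higher and 29.3% lower. At least 2-fold higher on both arrays were 10 members, against a background of 2.46% of genes, and at least 2-fold lower were 2 members, against 3.57%. The 10 members came to 8 under normexp and loess (1.73% of all genes) and to 6 under normexp and median centring (3.17%). The median log2 ratio of OE over WT was 0.69 over the members (0.61 and 0.74 on the arrays) and -0.06 over all genes. The members thus lay mostly on the higher side, where fewer genes lay overall. Of 20 fibroblast markers, which the feeders express, 18 were higher too, and in bulk RNA a larger share of feeder cells and more RNA per cell cannot be told apart.

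**Figure D1:**
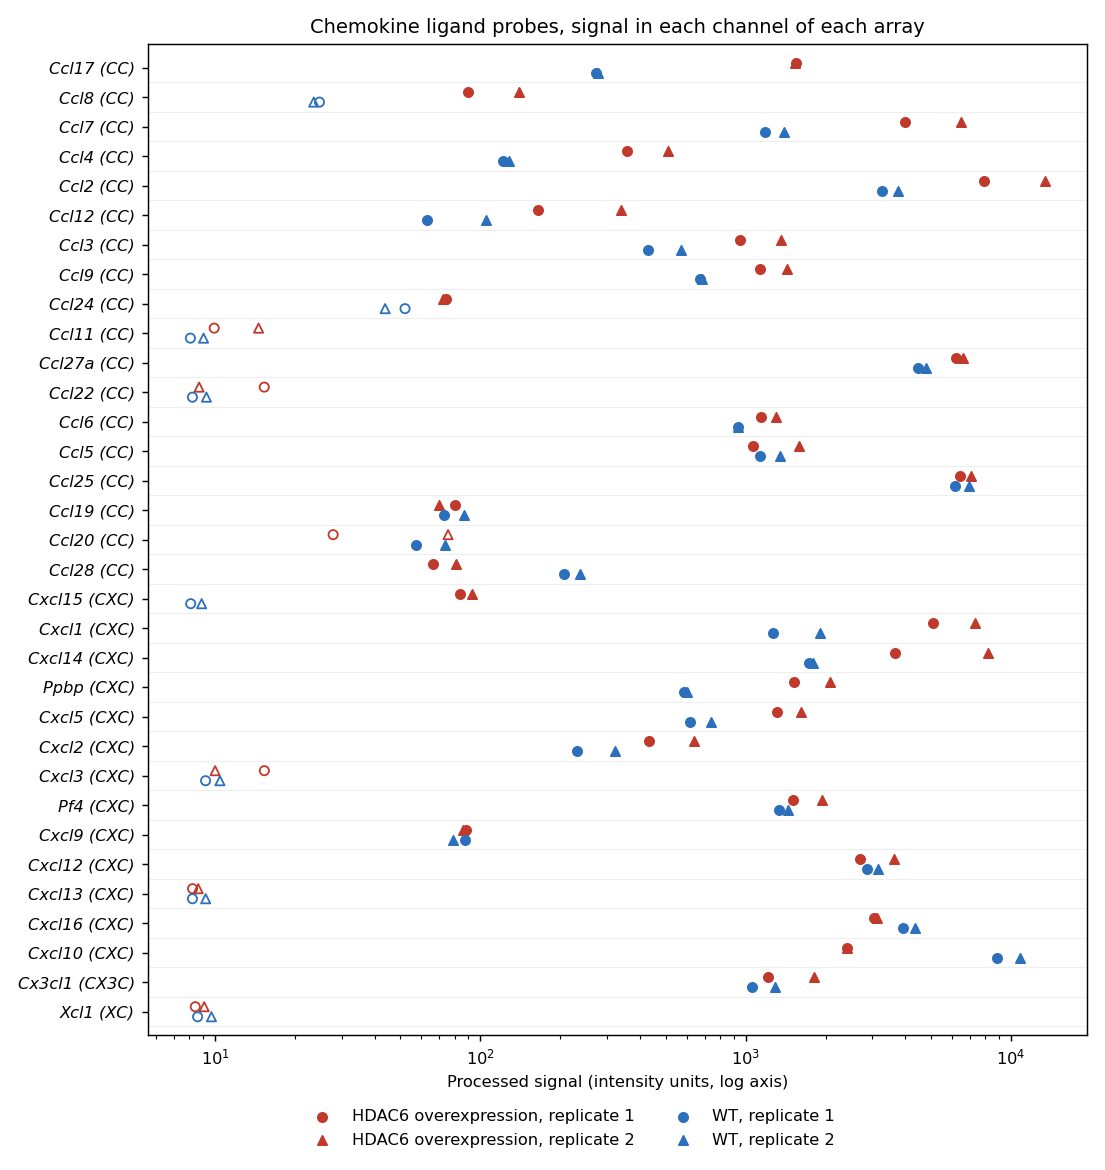
Processed signal (log scale) of each chemokine ligand in OE and WT RNA on both arrays; circles and triangles are replicates 1 and 2, and open symbols mark a channel that was not well above background on both arrays. Cxcl10 and Ccl28 sit higher in WT RNA, and the CXCR2 and CCR2 ligands higher in OE RNA.

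The CXCR2 ligands were higher together. All 4 that were measured in both channels (Cxcl1, Cxcl2, Cxcl5 and Ppbp) passed the test, and 3 of them had at least 2-fold more signal in OE RNA on each array. Cxcl1, a neutrophil attractant, had signals of 5091 and 7322 in OE RNA, against 1264 and 1904 in WT RNA, which is a log2 ratio of 1.98 ± 0.05 (SD, n = 2; adjusted p = 0.000126). Both OE signals lay above both WT signals. Cxcl2, a related neutrophil attractant, had 430 and 637 in OE RNA, against 232 and 321 in WT RNA (log2 0.94 ± 0.07, adjusted p = 0.000972). Cxcl5, which acts on the same receptor, had 1308 and 1622 in OE RNA, against 620 and 742 in WT RNA (log2 1.10 ± 0.04, adjusted p = 0.000592). Ppbp, the platelet-basic-protein precursor, had 1527 and 2077 in OE RNA, against 585 and 602 in WT RNA (log2 1.59 ± 0.29, adjusted p = 0.000531). For each of these 4 genes the OE and WT signals did not overlap, but the share of all genes with such a separation was not counted.

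Cxcl15, described in mouse lung, was well above background on both arrays in OE RNA, with signals of 83.9 and 93.1, and on 0 arrays in WT RNA, where signals were 8.10 and 8.90. Its level in WT RNA is therefore only bounded, and it was at least 2.12-fold higher in OE RNA (a mean of 88.4 in OE RNA against a WT floor of 41.7). With the floor at the 95th percentile of signals not well above background the bound was 2.28-fold, and with channel values after normexp, loess and Aquantile normalization it was 1.54-fold. Cxcl3, the other member of this group, was measured in neither channel.

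Cxcl10, the interferon-induced ligand of CXCR3, went the other way. Its signals were 2416 and 2401 in OE RNA, against 8840 and 10769 in WT RNA, a log2 ratio of -2.02 ± 0.21 (SD, n = 2; adjusted p = 0.000192). It was the lowest ratio of any member measured in both channels. Cxcl9, which shares the receptor, had 88.0 and 86.0 in OE RNA, against 87.4 and 79.0 in WT RNA (log2 0.07 ± 0.08, adjusted p = 0.577), and its other probe was measured in neither channel.

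Promoters of Cxcl1 and Cxcl2, which were higher, and of Cxcl10, which was lower, are printed because all 3 hold the NF-kB consensus, and that of Cxcl3, measured in neither channel, because it shares a run with the first pair. Sequences are from RefSeq, build GRCm38.p6, each 300 bases from 250 before to 50 after the annotated start, 5′ to 3′ along the gene. In capitals are matches to the NF-kB consensus and, in Cxcl10 alone of these 4, to GAAANNGAAA, the paired element that interferon regulatory factors bind.
Cxcl3, chr5:90785851-90786150, plus strand: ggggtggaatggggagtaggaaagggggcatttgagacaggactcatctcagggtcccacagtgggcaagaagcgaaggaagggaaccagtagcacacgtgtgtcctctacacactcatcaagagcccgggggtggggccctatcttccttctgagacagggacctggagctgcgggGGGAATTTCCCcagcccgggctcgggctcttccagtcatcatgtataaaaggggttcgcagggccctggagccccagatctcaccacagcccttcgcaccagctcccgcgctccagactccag
Cxcl1, chr5:90890995-90891294, plus strand: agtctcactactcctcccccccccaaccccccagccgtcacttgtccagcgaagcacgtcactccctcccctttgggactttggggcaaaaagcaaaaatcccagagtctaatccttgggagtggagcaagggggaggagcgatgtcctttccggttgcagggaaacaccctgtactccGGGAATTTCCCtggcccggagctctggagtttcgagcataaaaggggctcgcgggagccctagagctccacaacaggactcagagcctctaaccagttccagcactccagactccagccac
Cxcl2, chr5:90903649-90903948, plus strand: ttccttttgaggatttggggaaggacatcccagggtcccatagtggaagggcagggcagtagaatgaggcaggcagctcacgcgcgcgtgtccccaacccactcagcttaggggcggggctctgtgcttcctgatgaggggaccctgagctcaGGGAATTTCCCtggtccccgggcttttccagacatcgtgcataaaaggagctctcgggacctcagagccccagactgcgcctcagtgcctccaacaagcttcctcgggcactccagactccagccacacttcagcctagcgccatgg
Cxcl10, chr5:92348840-92349139, minus strand: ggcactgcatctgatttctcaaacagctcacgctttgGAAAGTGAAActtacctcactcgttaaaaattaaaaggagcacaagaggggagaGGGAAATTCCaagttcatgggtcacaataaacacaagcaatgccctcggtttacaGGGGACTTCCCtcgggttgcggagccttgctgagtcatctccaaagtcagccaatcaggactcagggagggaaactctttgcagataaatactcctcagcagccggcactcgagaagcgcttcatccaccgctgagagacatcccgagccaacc
Cxcl1, Cxcl2 and Cxcl3 each hold the same run, GGGAATTTCCC, starting 71, 97 and 73 bases before the start, in which the consensus matches once on each strand, offset by 1 base. The promoters of Ppbp and Cxcl15, higher as well, hold no match in this window. Cxcl10 holds matches starting 159, 104 and 103 bases before the start and a GAAANNGAAA match 213 bases before it. Searched on both strands, the NF-kB consensus is in 8.46% of all 32851 promoters of this length and in those of 7 of the 25 members with a promoter in the table: Ccl9, Ccl20, Ccl27a, Cxcl1, Cxcl2, Cxcl3 and Cxcl10. GAAANNGAAA is in 3.44% of all promoters and in those of Ccl19, Cxcl10 and Cxcl14. TATAAA is in 13.6% of all promoters and in those of 10 members. A match is a description of these letters only.

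Among other CXC ligands, Cxcl14, which is made by epithelia and fibroblasts, had 3656 and 8180 in OE RNA, against 1728 and 1800 in WT RNA (log2 1.63 ± 0.78, adjusted p = 0.00388). Its ratio was 1.08 on replicate 1 and 2.18 on replicate 2, the widest spread of any member measured in both channels. Cxcl16, a transmembrane ligand of CXCR6, had 3057 and 3140 in OE RNA, against 3923 and 4365 in WT RNA (log2 -0.42 ± 0.08, adjusted p = 0.0138). Pf4, the platelet factor, had 1503 and 1943 in OE RNA, against 1341 and 1440 in WT RNA (log2 0.30 ± 0.19, adjusted p = 0.0607). It missed the threshold here and passed it under normexp with loess (0.27), with median-centred processed ratios (0.36) and with only genes measured in both channels.

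The probes of Cxcl12, the homeostatic ligand of CXCR4, differed. Its brighter probe had 2708 and 3614 in OE RNA, against 2861 and 3165 in WT RNA (log2 0.06 ± 0.19, adjusted p = 0.682), where the groups overlap. Its other probe had 229 and 486 in OE RNA, against 148 and 180 in WT RNA, a log2 ratio of 0.63 and 1.43 on the arrays. Averaged over both probes the log2 ratio was 0.54 (adjusted p = 0.0326), so whether Cxcl12 is called depends on the probe. The 4 other members with several probes were less divided: the probes of Ccl27a gave log2 ratios of 0.47, 0.49 and 0.34, those of Ccl25 0.04 and 0.03, and Ccl19 and Cxcl9 had one measured probe each.

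In the CC class, the genes listed here as ligands of the monocyte receptor CCR2 were higher. Ccl2, the principal monocyte attractant, was spotted 10 times and had 7912 and 13405 in OE RNA, against 3264 and 3747 in WT RNA (log2 1.56 ± 0.40, SD, n = 2; adjusted p = 0.000919). Ccl7, which also binds CCR1 and CCR3, had 3994 and 6473 in OE RNA, against 1185 and 1393 in WT RNA (log2 1.98 ± 0.33, adjusted p = 0.000352). Ccl12, a ligand known in mouse, had 166 and 340 in OE RNA, against 63.2 and 105 in WT RNA (log2 1.54 ± 0.22, adjusted p = 0.000431). The OE signals of all 3 lay above all their WT signals, a separation that was not counted over all genes. Ccl8, placed in the same list, had 89.6 and 140 in OE RNA, against 24.8 and 23.6 in WT RNA, where it was well above background on 0 arrays. It was at least 2.68-fold higher in OE RNA, or 1.88-fold with channel values after normexp, loess and Aquantile normalization. Its log2 ratio was 2.21, or 0.98 under normexp and loess, which is why only the bound is used.

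The macrophage inflammatory proteins Ccl3 and Ccl4 were also higher, while Ccl5 did not pass the test. Ccl4 had 357 and 510 in OE RNA, against 122 and 128 in WT RNA (log2 1.77 ± 0.31, adjusted p = 0.000450), and Ccl3 had 953 and 1354 in OE RNA, against 429 and 572 in WT RNA (log2 1.20 ± 0.06, adjusted p = 0.000508). Both attract macrophages and T cells, and RefSeq gives their genes spans that share 755 bases. The probes were not placed on these spans, so whether a probe reads both genes was not tested. Ccl5 had 1068 and 1591 in OE RNA, against 1130 and 1350 in WT RNA (log2 0.08 ± 0.23, adjusted p = 0.591), and its groups overlap. Ccl9 and Ccl6, a pair described in mice that signal through CCR1, had log2 ratios of 0.91 ± 0.22 (adjusted p = 0.00189) and 0.39 ± 0.13 (adjusted p = 0.0216). Ccl9 had 1132 and 1438 in OE RNA, against 673 and 687 in WT RNA, and Ccl6 had 1142 and 1303 in OE RNA, against 933 and 934 in WT RNA.

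Ccl17, a ligand of CCR4 that attracts T cells, had 1543 and 1534 in OE RNA, against 273 and 278 in WT RNA. Its log2 ratio of 2.48 ± 0.02 (SD, n = 2; adjusted p = 6.31e-05) was the highest of any member measured in both channels, and it differed by far more than the spread between arrays. The other CCR4 ligand, Ccl22, was measured in neither channel. Of the CCR10 ligands, Ccl28, made by mucosal epithelia, had 66.3 and 80.9 in OE RNA, against 207 and 238 in WT RNA (log2 -1.60 ± 0.06, adjusted p = 0.000228), and Ccl27a, known from skin, had 6221 and 6613 in OE RNA, against 4482 and 4785 in WT RNA (log2 0.47 ± 0.0044, adjusted p = 0.00820). These 2 ligands of one receptor thus moved in opposite directions.

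The remaining CC members moved little or were dim. Ccl25, which directs cells to the gut and thymus, had 6413 and 7080 in OE RNA, against 6138 and 6950 in WT RNA (log2 0.04 ± 0.03, adjusted p = 0.698). Ccl19, a CCR7 ligand of lymphoid tissue, had 80.0 and 69.8 in OE RNA, against 72.7 and 86.8 in WT RNA (log2 -0.09 ± 0.32, adjusted p = 0.604). Ccl27a and Ccl19 have near-identical copies elsewhere on chromosome 4 in the mouse annotation, so their probes may read more than 1 gene. Ccl24, an eosinophil attractant, had 74.3 and 72.2 in OE RNA, against 52.0 and 43.8 in WT RNA, where it was well above background on 1 array; it entered the test through the OE channel alone, and its log2 ratio was 0.62, or 0.36 under normexp and loess. Ccl20, the CCR6 ligand, had 27.9 and 75.6 in OE RNA, where it was well above background on 1 array, against 57.3 and 73.3 in WT RNA, and its groups overlap. Cx3cl1, the transmembrane ligand of CX3CR1, had 1219 and 1817 in OE RNA, against 1054 and 1295 in WT RNA (log2 0.35 ± 0.20, adjusted p = 0.0395), and it missed the threshold under normexp with median centring (0.20) and without the filter on dim probes.

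By class, 9 of the 13 CC ligands measured in both channels were higher, 1 was lower (Ccl28) and 3 did not pass. Their median log2 ratio was 0.91 (0.75 and 1.07 on the arrays). Among all genes measured in both channels, 20.5% were higher and 29.3% lower. Of the 10 CXC ligands, 5 were higher, 2 were lower (Cxcl10 and Cxcl16) and 3 did not pass, with a median of 0.62 (0.53 and 0.71). Both medians were on the higher side and the classes overlapped; the difference between them was not tested. Ratios tended to be larger on replicate 2, in 17 of the 24 members (70.8%) and in 12 of the 15 that were higher (80.0%), against 49.4% of all genes and 65.0% of all genes that were higher.

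**Figure D2:**
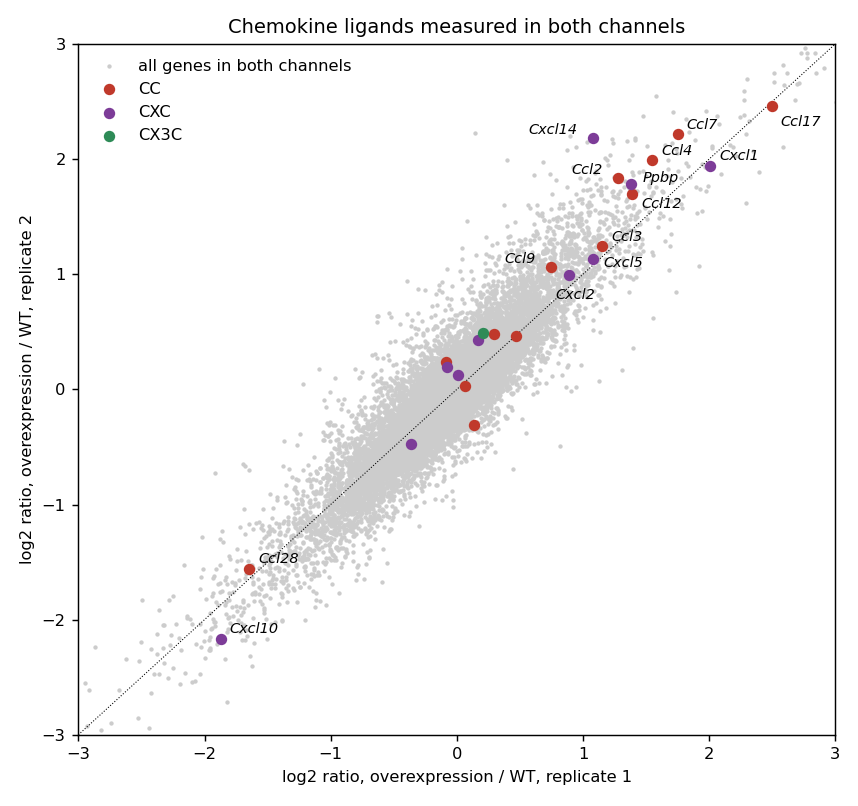
log2 ratio of OE over WT on replicate 1 (x axis) and replicate 2 (y axis) for members (coloured by class) and for all genes measured in both channels (grey); the axes end at 3, and genes beyond them are not drawn. Most members lie near the dotted line of equal ratios in the upper right, Cxcl14 lies above it, and Cxcl10 and Ccl28 lie in the lower left.

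Position on the chromosomes was compared with the other genes there. The 8 CC ligands of chromosome 11 measured in both channels had a median log2 ratio of 1.37 (1.21 and 1.47), and 7 were higher and 0 lower. The 1295 measured genes of chromosome 11 had a median of -0.51, with 8.88% higher and 66.9% lower, so these ligands lay on the opposite side from most of their chromosome. The 20 nearest measured neighbours of the Ccl2 to Ccl8 block (Ccl2, Ccl7, Ccl11, Ccl12, Ccl8) held 3 higher and 13 lower genes, with a median of -0.58, and those of the Ccl5 to Ccl4 block (Ccl5, Ccl9, Ccl6, Ccl3, Ccl4) 4 higher and 10 lower, with a median of -0.37. The neighbour sets of these blocks share Slfn9, Slfn8 and Slfn2. Cxcl16, the 1 CXC member of chromosome 11, was lower. Elsewhere, 5 CC ligands were measured in both channels, and 2 of them were higher, 1 lower, with a median of 0.04. The shares over all genes were 20.5% higher and 29.3% lower.

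On chromosome 5, 7 CXC ligands were measured in both channels, 4 of them higher and 1 lower, with a median of 0.94, where the 962 measured genes of the chromosome had a median of -0.06 with 21.5% higher and 26.8% lower. The Cxcl5 to Cxcl2 block (Cxcl5, Ppbp, Pf4, Cxcl3, Cxcl15, Cxcl1, Cxcl2) had 3 higher and 10 lower genes among its 20 nearest measured neighbours (median -0.27), and the block of Cxcl9 and Cxcl10 had 2 higher and 11 lower (median -0.38). The higher neighbours of the Cxcl5 to Cxcl2 block were Ereg, Areg and Parm1, in a row on the Cxcl2 side. The neighbour sets of these blocks share the genes from Areg to Uso1. On chromosome 8, 3 members were measured in both channels. Ccl17 and Cx3cl1, which lies between Ccl22 and Ccl17 in gene order, were higher, and Ccl25 did not pass. The 827 measured genes of the chromosome had a median of -0.25, with 13.2% higher and 46.7% lower.

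**Figure D3:**
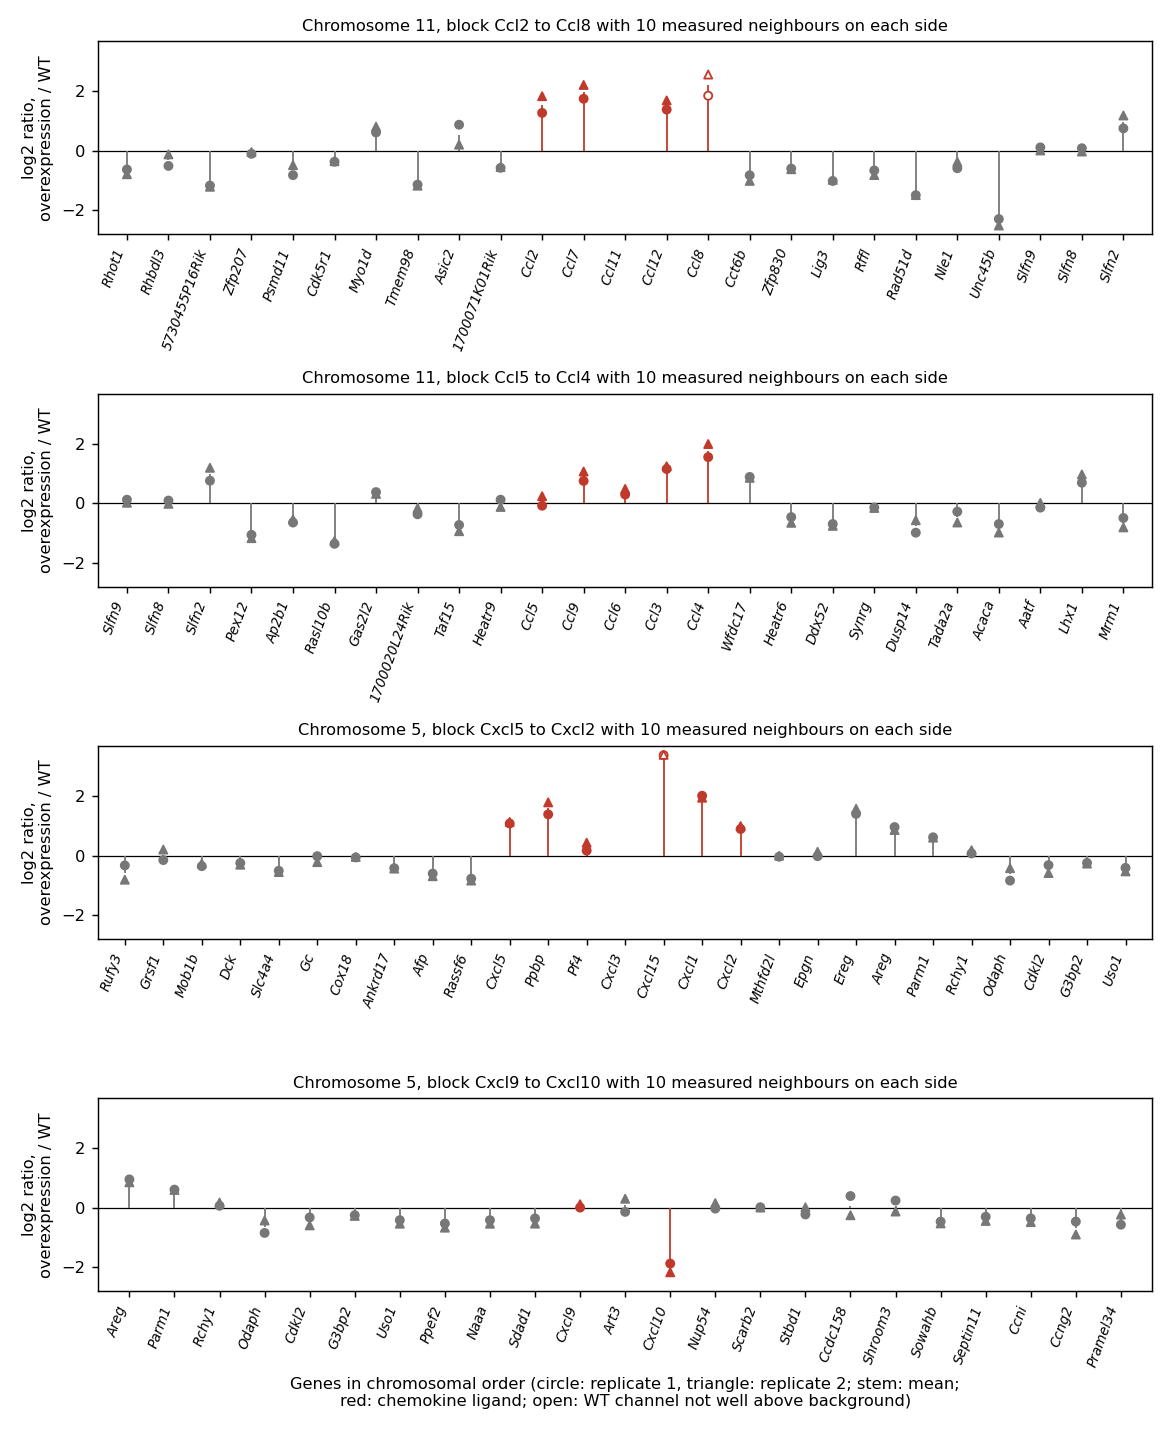
log2 ratio of OE over WT for the chemokine blocks and their 10 nearest measured genes on each side, in chromosomal order; circles and triangles are replicates 1 and 2, stems the mean, red marks ligands, and open symbols have a WT channel that was not well above background. Most ligands stand above 0 among neighbours that lie mostly at or below it, Ccl5, Pf4 and Cxcl9 lie near 0, and Cxcl10 lies below.

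Of 18 chemokine receptors, 5 were measured in both channels. Of these, 4 were higher and 1 lower, beside 20.5% higher and 29.3% lower over all genes measured in both channels. Measured in neither channel were 11, Ccr2, Ccr4, Ccr6, Cxcr1, Cxcr3 and Ccr10 among them. Cxcr6, the receptor of Cxcl16, had a log2 ratio of 2.06 ± 0.49 (adjusted p = 0.000636), Ccr1, measured in OE RNA alone, was at least 1.42-fold higher, and Ccr7, which directs cells to lymphoid tissue, had -2.05 ± 0.22 (adjusted p = 0.000194). Of the decoy and atypical receptors, Ccrl2 (0.96 ± 0.19, adjusted p = 0.00136) and the scavenger Ackr3 (0.77 ± 0.08, adjusted p = 0.00177), which takes up Cxcl12, were higher, Ackr4 was lower (-0.68 ± 0.12, adjusted p = 0.00295), and Ackr1 did not pass (0.01 ± 0.07). Ackr2 entered the test through the WT channel alone and was well above background on 1 array in OE RNA. It had 49.7 and 37.9 in OE RNA, against 86.7 and 82.3 in WT RNA. Its log2 ratio of -0.96 thus rests in part on a dim channel.

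Lists of cytokine, NF-kB and interferon-response genes were set beside the ligands. They stand against all genes measured in both channels, of which 20.5% were higher and 29.3% lower. All 7 inflammatory cytokine genes measured in both channels were higher, with Il6 at 1.90 ± 0.22 (adjusted p = 0.000240), Csf1 at 1.51 ± 0.31 (adjusted p = 0.000661), Tnf at 1.09 ± 0.32 (adjusted p = 0.00181) and Tslp at 1.05 ± 0.06 (adjusted p = 0.000686). Of 14 NF-kB subunits and regulators, 2 were higher (Nfkbia 0.55 ± 0.20, adjusted p = 0.00910; Nfkbiz 0.50 ± 0.02, adjusted p = 0.00654), 1 was lower (Nfkb1, -0.34 ± 0.14, adjusted p = 0.0326) and 11 did not pass. The shares higher (14.3%) and lower (7.14%) were both under those of all genes. Of 14 interferon-response genes measured in both channels, 11 were lower and 0 higher. Of all 15 tested, 1 was higher, and it entered the test through the OE channel alone. Oasl2, an antiviral gene, had -2.44 ± 0.05 (adjusted p = 6.96e-05), Gbp3 -2.34 ± 0.12 (adjusted p = 9.04e-05), Rsad2 -2.29 ± 0.06 (adjusted p = 8.10e-05) and Cd274 -2.13 ± 0.13 (adjusted p = 0.000126). Cxcl10 had the direction of most of the interferon list, and the CXCR2 and CCR2 ligands that of the cytokine list.

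**Figure D4:**
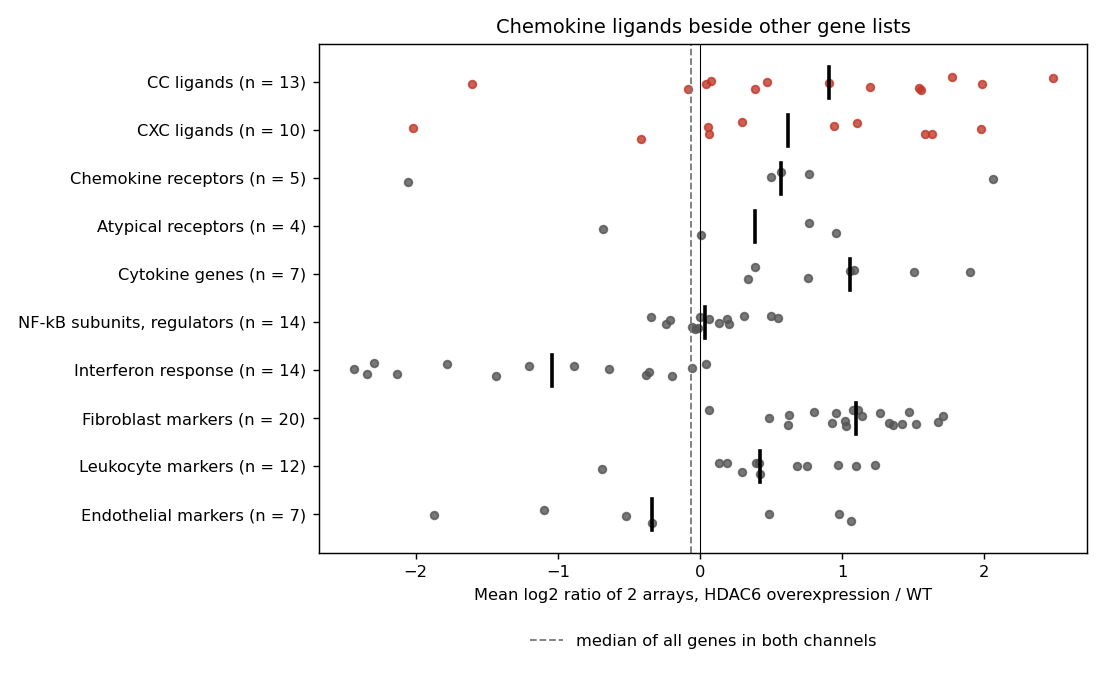
Mean log2 ratio of OE over WT for the genes of each list measured in both channels (n in each row), with black bars for list medians; the dashed line is the median of all genes. CC ligands span -1.60 to 2.48 and CXC ligands -2.02 to 1.98, with medians of 0.91 and 0.62.

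Markers of other cells differed between the RNAs as well. The shares over all genes measured in both channels were 20.5% higher and 29.3% lower. Fibroblast, leukocyte and primitive endoderm markers went mostly in the direction of the ligands, and endothelial markers in both directions. The part of these cells in the ligands' differences was not tested. All 20 fibroblast markers, the feeder cells' genes, were measured in both channels, 18 higher and 0 lower, with a median log2 ratio of 1.10 (0.90 and 1.34 on the arrays) and summed signals of 297748 and 387459 in OE RNA, against 170268 and 150685 in WT RNA. Col1a2, a collagen chain, had 1.71 ± 0.46 (adjusted p = 0.000919), S100a4 1.68 ± 0.25 (adjusted p = 0.000399), Lum 1.52 ± 0.22 (adjusted p = 0.000453) and Thy1 1.47 ± 0.34 (adjusted p = 0.000829). All 20 had the larger ratio on replicate 2. Of 12 macrophage and leukocyte markers, 8 were higher and 1 was lower, with summed signals of 55216 and 68285 in OE RNA, against 39171 and 59319 in WT RNA, and none of the 14 with a probe was at background in both channels; Csf1r had 1.23 ± 0.04 (adjusted p = 0.000452). Of 7 endothelial markers, 3 were higher and 4 lower, with summed signals of 9635 and 9313 in OE RNA, against 10818 and 11049 in WT RNA. Of 11 primitive endoderm markers measured in both channels, 10 were higher and 1 lower, with Cubn at 5.51 ± 0.06, Gata4 at 4.96 ± 0.17 and Foxa2 at 4.93 ± 0.13.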

How the data were processed

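Two-colour Agilent arrays were read by the authors with Feature Extraction 11.5.1.1, per the file headers. The deposited raw intensity values of spots and local background have no normalization. The deposited processed intensity values had background subtracted and dyes normalized by a linear and a lowess step, per the file headers. The deposited log10 ratio is that of processed Cy5 over Cy3. The deposited series table holds log2 values that equal the scanner ratio with the sign turned (WT over OE, correlation -1.000, column medians -0.0074 and 0.062), with no further centring.

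Ratios of processed signals (OE over WT) were taken as log2; control and outlier spots (269 and 313) were left out, and spots of 1 probe averaged. Probes were named through accessions in a RefSeq table of GRCm38.p6 (26762 of 55681 had a symbol). A gene took its brightest probe and was tested where that probe passed the scanner's background test on both arrays in at least 1 common channel (16069 genes), with limma 3.58.1 under R 4.3.3 (lmFit and eBayes, intercept only, two-sided, Benjamini-Hochberg). The fit has 1 residual degree of freedom, so its precision is limited by the number of arrays. Alternatives were other background corrections, centring, filters on dim probes, probe choices, kept outlier spots, the series table, leaving out an array and a test against a 1.5-fold change. Named are all members and, from each other list, up to 4 genes past the threshold with the largest ratio. Members and lists were chosen with earlier results of these data known. Some genes of the other lists are not reported here by name.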

Additional observations from a re-analysis of the deposited data

How the results depend on the processing

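Each array's ratio is already the within-pair difference of OE and WT, so a further replicate block was not fitted. Among the 24 members measured in both channels, 15 were higher and 3 lower, and over the settings with a test 11 to 16 were higher and 2 or 3 lower; no member that passed changed sign. Over all 28 tested, 18 were higher, against 21.2% of all genes tested. These 18 include 3 (Ccl8, Ccl24 and Cxcl15) that entered through the OE channel alone, so they add no support. Of these 28, 12 reached 2-fold higher on each array, with Ccl8 and Cxcl15 among them through WT values not well above background. Under normexp with median centring 6 did, and that setting also gave a CXC median of 0.44. Of the 16069 genes tested, 487 were at least 2-fold higher and 706 lower, against 288 and 454 under normexp and loess. Leaving out 1 array gave 566 to 893 higher and 855 to 1067 lower genes, with no test possible. Against a 1.5-fold change, 667 genes were higher and 942 lower, where a test against no change gave 3413 and 4807, and Ccl6, Ccl9, Ccl24, Ccl27a, Cxcl16 and Cx3cl1 no longer passed. Low signal limits the 2 bounded members, and the common dye orientation limits every ratio.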
